A study of Mus musculus with 4 samples.

Results

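The genes of sterol and fatty acid synthesis were followed in mouse intestinal organoids, cultures of intestinal epithelium grown in a gel matrix, on 4 Affymetrix arrays. The 31 genes were taken by name from the pathway and not by their measured values, though with earlier results of these data known. Of them, 30 had a probe set assigned to that gene alone, out of 18193 genes in the series. The remaining gene, Acat2, a cytosolic thiolase at the entry of the pathway, was not analysed here. The 30 genes comprised 17 sterol enzymes, 6 fatty acid enzymes, 5 genes of the SREBP control system, the lipid transfer protein gene Stard4 and the phosphatidate phosphatase gene Lpin1.

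The 4 groups were wt/wt organoids at day 4, fl/fl organoids at day 4, wt/wt organoids at day 6 and fl/fl organoids at day 6, where wt/wt and fl/fl name the Tacc3 alleles. Each group held 1 array. All 4 cultures received 4OHT (4-hydroxytamoxifen) for 24 hours, which was used to recombine Apc, a tumour suppressor of the Wnt pathway, and Tacc3, which encodes a spindle protein. By their descriptions, organoids of day 4 were normal and those of day 6 lacked Apc, while the design text has both genes recombined before collection on either day, so the Apc state of a group cannot be told from the labels. For the Cre driver, the age and strain of the animals and the number of cultures behind each array, the sources used here give nothing.

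Cells build cholesterol from acetyl-CoA through mevalonate, farnesyl diphosphate and squalene, and the ring made from squalene is then trimmed in a series of steps to cholesterol. Fatty acids are built from the same acetyl-CoA by carboxylation, chain synthesis, elongation and desaturation. Transcription of both branches is driven by the SREBP factors, which are held in the endoplasmic reticulum by SCAP and the INSIG proteins while sterols are plentiful and released when they are scarce. In intestinal epithelium the sterol supply comes from dietary uptake in enterocytes as well as from synthesis in the crypt.

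The promoter windows of 5 genes are shown because these genes span the pattern described later: Msmo1 and Ebp were 2-fold higher at day 6 in both genotypes, Idi1 in fl/fl organoids, Hmgcs1 differed between its own probe sets, and Fasn was lower at day 6. Each window holds 250 bases before and 50 bases after the start of the gene, 5′ to 3′ on the gene's strand, from the RefSeq table of GRCm38.p6. Capitals mark matches on either strand to the sterol regulatory element TCACNCCAC, the NF-Y box CCAAT and the Sp1 box GGGCGG.
Hmgcs1, chr13:119690101-119690400, plus strand: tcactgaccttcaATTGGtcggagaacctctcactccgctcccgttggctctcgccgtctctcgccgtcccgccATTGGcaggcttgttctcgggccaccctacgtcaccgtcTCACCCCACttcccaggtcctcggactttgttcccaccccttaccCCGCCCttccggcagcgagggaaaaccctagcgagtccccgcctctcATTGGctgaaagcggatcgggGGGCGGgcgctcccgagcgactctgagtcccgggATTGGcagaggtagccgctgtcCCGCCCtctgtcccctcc
Idi1, chr13:8885356-8885655, plus strand: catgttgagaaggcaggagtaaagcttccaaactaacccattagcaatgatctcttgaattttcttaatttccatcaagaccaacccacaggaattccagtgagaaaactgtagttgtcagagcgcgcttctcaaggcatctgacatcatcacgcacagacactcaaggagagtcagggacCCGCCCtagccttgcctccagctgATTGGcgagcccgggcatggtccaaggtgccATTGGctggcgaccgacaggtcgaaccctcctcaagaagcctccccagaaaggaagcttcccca
Msmo1, chr8:64733529-64733828, minus strand: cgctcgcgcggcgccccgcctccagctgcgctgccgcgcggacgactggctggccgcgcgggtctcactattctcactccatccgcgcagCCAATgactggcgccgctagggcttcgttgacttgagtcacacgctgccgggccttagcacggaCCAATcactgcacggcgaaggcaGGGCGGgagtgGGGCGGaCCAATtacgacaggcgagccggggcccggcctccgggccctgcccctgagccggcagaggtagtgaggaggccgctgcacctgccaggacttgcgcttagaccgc
Ebp, chrX:8193463-8193762, minus strand: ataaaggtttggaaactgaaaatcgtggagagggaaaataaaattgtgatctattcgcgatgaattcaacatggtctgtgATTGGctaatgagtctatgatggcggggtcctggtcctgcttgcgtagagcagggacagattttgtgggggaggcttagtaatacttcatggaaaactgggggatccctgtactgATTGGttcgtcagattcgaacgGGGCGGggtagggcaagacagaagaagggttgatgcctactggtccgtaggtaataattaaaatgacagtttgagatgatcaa
Fasn, chr11:120824498-120824797, minus strand: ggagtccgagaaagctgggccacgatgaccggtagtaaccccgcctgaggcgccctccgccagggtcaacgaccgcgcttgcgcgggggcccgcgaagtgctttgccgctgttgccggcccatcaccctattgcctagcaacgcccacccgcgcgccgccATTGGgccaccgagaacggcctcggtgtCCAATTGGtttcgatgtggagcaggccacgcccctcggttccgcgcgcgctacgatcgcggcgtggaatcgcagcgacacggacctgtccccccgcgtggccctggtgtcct
In Fasn, 2 of the 3 NF-Y boxes overlap, one on each strand.

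Windows were given for 25 of the 31 genes, Acat2 among them. The NF-Y box was found in at least 1 window of 20 of these 25 genes (80%), against 41.1% of the 27025 genes in the table. Among sterol enzymes it was present in 14 of 15 and among fatty acid enzymes in 2 of 4. The Sp1 box was present in 20 of 25 genes, against 38.2% of all genes, with 14 of 15 sterol enzymes and 1 of 4 fatty acid enzymes. The sterol regulatory element was found in Hmgcs1 alone, starting 137 bases before the gene start, against 1.44% of all genes, and this strict spelling misses variants of the element. Msmo1 holds 3 NF-Y and 2 Sp1 boxes, Ebp 2 and 1, Idi1 2 and 1, Hmgcs1 4 and 3, and Fasn 3 and 0. A match is a string of letters and not a binding site. Windows of 300 bases were compared by gene, and 27025 genes had 32851 windows. These genes were not limited to those above the filter on intensity, so the shares do not compare like with like. By window, the NF-Y box was in 63.6% of 33 windows of the pathway, against 37.4% of all. The Sp1 box was in 72.7%, against 35.7%.

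The arrays were of intestinal epithelium by their markers. All 9 epithelial markers, among them Epcam, Vil1 and Krt8, lay above the filter level of 16.9 on every array. The adipocyte genes Adipoq, Cidec, Lep and Fabp4 read at most 10.1, while Retn, the fifth adipocyte gene measured, read 47.0 to 84.9. Of 4 hepatocyte genes, Alb read at most 12.6 and Ttr 60.7 to 156. Between 1 and 5 of 8 mesenchymal, 1 and 2 of 5 immune and 0 and 1 of 3 endothelial genes lay above the filter level on an array, and the brightest of these, Acta2, read 45.6. The part of these genes in the results was not tested. Median intensities lay between 15.4 and 17.7. For Actb, the intensity at the 5′ end over that at the 3′ end, which falls with degraded RNA or short labelled cRNA, was 0.0610 and 0.0627 at day 4 (wt/wt and fl/fl) and 0.180 and 0.261 at day 6. For Gapdh it was 0.208 and 0.142 at day 4 and 0.411 and 0.524 at day 6. The brightest Tacc3 probe set read 184 (day 4) and 167 (day 6) with wt/wt alleles and 59.8 and 49.7 with fl/fl alleles.

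All 30 genes passed the filter on mean intensity, and the dimmest was Insig2, between 23.5 and 66.4. Values were compared as log2(intensity + 16), a scale that understates differences of dim genes, and a difference of at least 1 on it is called 2-fold. Since a group is a single array, differences could not be set against replicate error, and calls describe size only. In these bulk samples, fewer cells of a type and less RNA per cell cannot be told apart. The plot of intensities by array shows the 30 genes in pathway order.

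**Figure D1:**
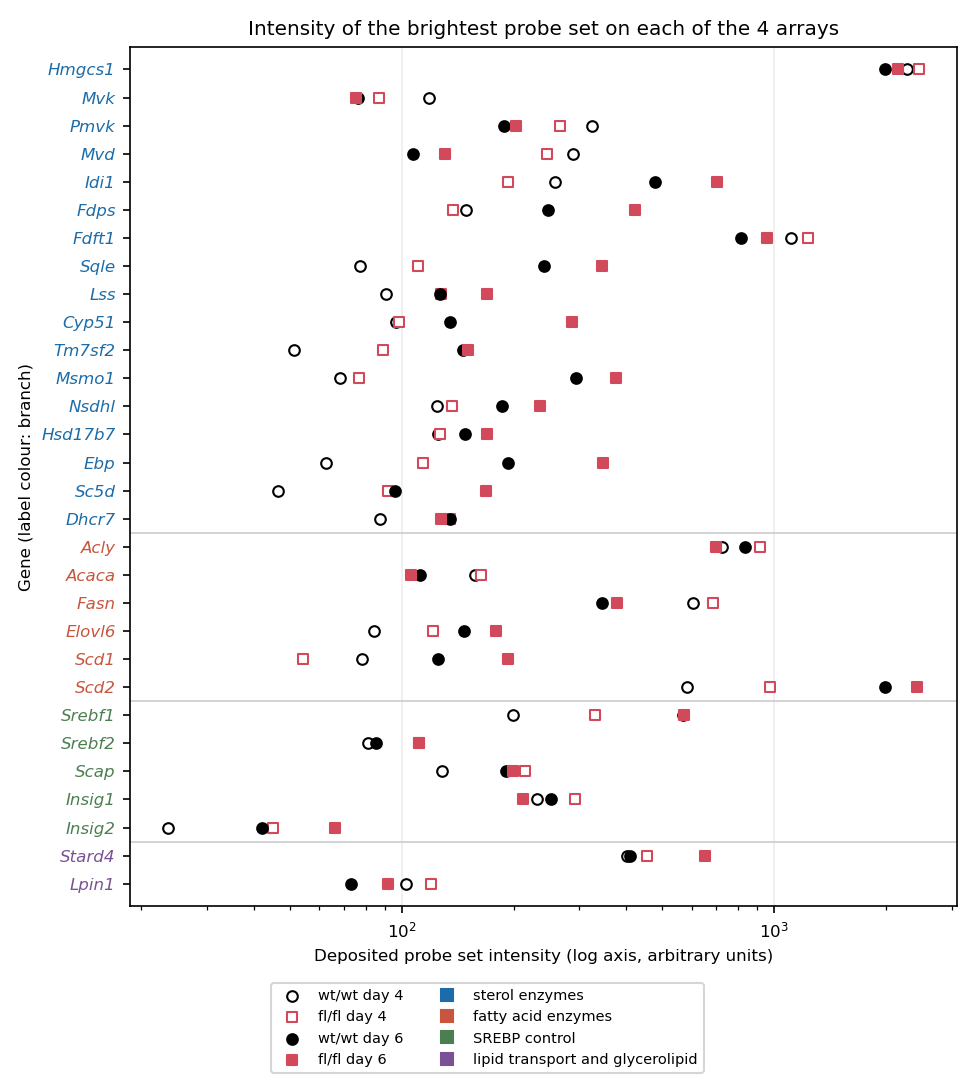
Deposited intensity (x axis, log scale, arbitrary units) of the brightest probe set of each of the 30 genes (rows, in pathway order, label colour for the branch) on the 4 arrays, 1 point per array. The filled day 6 points lie to the right of the open day 4 points for Idi1, Fdps, Sqle, Msmo1 and Ebp and to the left for Pmvk, Mvd, Acaca and Fasn, and levels are not comparable between genes.

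The comparison of day 6 with day 4 asks what differed between the days in each genotype. Enzymes from squalene onward were mostly higher at day 6, while the early mevalonate enzymes Mvk, Pmvk and Mvd were lower. In the fatty acid branch the desaturase and elongase genes were higher and the chain-building enzymes Fasn and Acaca lower. In wt/wt organoids 6 of 30 genes (20%) were 2-fold higher and 1 was 2-fold lower, against 18.3% and 2.97% of 11392 genes. In fl/fl organoids 8 of 30 (26.7%) were 2-fold higher and 0 lower, against 12.2% and 2.9% of all genes. Sqle, Msmo1, Ebp and Scd2 were 2-fold higher in both genotypes, 4 of 30 (13.3%) against 9.37% of all genes, and 0 were 2-fold lower in both, against 1.35%. The share in wt/wt organoids was thus near that of all genes.

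At the entry of the sterol branch, Hmgcs1, the synthase that makes HMG-CoA, had its brightest probe set at 2276 and 2455 at day 4 (wt/wt and fl/fl) and at 1990 and 2146 at day 6. The log2 difference of -0.19 in either genotype was small. Its 3 other probe sets above the filter gave 0.98 to 1.52 in wt/wt and 1.43 to 1.95 in fl/fl organoids, so the direction of Hmgcs1 between the days is uncertain.

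Mevalonate is then phosphorylated and decarboxylated by the products of Mvk, Pmvk and Mvd. Mvd, the decarboxylase, read 289 and 245 at day 4 (wt/wt and fl/fl) and 107 and 131 at day 6. Both day 6 values lay below both day 4 values, with log2 differences of -1.31 and -0.83. Pmvk, the second kinase, read 324 and 266 at day 4 and 189 and 202 at day 6, differences of -0.73 and -0.37. Mvk, the first kinase, read 119 and 86.9 at day 4 and 76.2 and 75.4 at day 6, differences of -0.55 and -0.17. On these probe sets the days did not overlap for any of the 3 genes, and the share of all genes of which this holds was not counted. The other Mvd probe set gave -0.75 and -0.12. The other Mvk probe set gave -0.12 and -0.20, with overlapping days.

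The isomerase and synthase that follow went the other way. Idi1, which interconverts the isopentenyl diphosphates, read 257 and 192 at day 4 (wt/wt and fl/fl) and 478 and 704 at day 6. The log2 difference was 0.85 (wt/wt) and 1.79 (fl/fl). Fdps, which makes farnesyl diphosphate, read 149 and 138 at day 4 and 248 and 423 at day 6, with 0.68 and 1.51. In both genes the fl/fl array was the lower at day 4 and the higher at day 6.

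Fdft1, squalene synthase, commits farnesyl diphosphate to sterols and was lower at day 6, with 1107 and 1237 at day 4 and 816 and 954 at day 6, differences of -0.43 and -0.37. Its probe sets disagreed, since another gave 0.51 and 0.15. Sqle, squalene epoxidase, a rate-limiting oxygen-dependent step, read 77.3 and 110 at day 4 and 242 and 345 at day 6. It had nearly the same log2 difference in the 2 genotypes, 1.46 and 1.52. Lss, which closes the ring to lanosterol, read 91.0 and 128 at day 4 and 127 and 169 at day 6, differences of 0.41 and 0.37, and wt/wt at day 6 did not exceed fl/fl at day 4. Other Lss probe sets gave -0.56 and -0.43, and 0.66 and 0.38.

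The demethylation steps held the gene with the highest day 6 values relative to day 4. Msmo1, the methylsterol oxidase (Sc4mol in older tables), read 68.3 and 76.9 at day 4 (wt/wt and fl/fl) and 293 and 377 at day 6, log2 differences of 1.88 and 2.08. Cyp51, the lanosterol demethylase, read 96.3 and 98.6 at day 4 and 135 and 287 at day 6. Its difference was 0.43 (wt/wt) and 1.40 (fl/fl), so the fl/fl array at day 6 stood above the other 3. Nsdhl, which acts with Msmo1, read 125 and 137 at day 4 and 186 and 235 at day 6, differences of 0.53 and 0.72. Hsd17b7, the ketosteroid reductase of the same series of steps, read 125 and 127 at day 4 and 147 and 169 at day 6, differences of 0.21 and 0.38. Other Hsd17b7 probe sets above the filter gave 0.39 and 0.83, and -0.16 and 0.82. Tm7sf2, a sterol reductase, read 51.5 and 89.0 at day 4 and 146 and 151 at day 6, differences of 1.26 and 0.67.

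Among the last steps, Ebp, the sterol isomerase, read 62.8 and 114 at day 4 and 193 and 347 at day 6. The log2 differences were 1.40 (wt/wt) and 1.48 (fl/fl). Sc5d, a desaturase, read 46.4 and 91.6 at day 4 and 95.8 and 168 at day 6, differences of 0.84 and 0.78, with wt/wt at day 6 close to fl/fl at day 4. Dhcr7, a terminal reductase, read 87.7 in wt/wt organoids at day 4 and 127 to 135 on the other 3 arrays, differences of 0.54 and -0.08.

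Taking the 6 enzymes from Hmgcs1 to Fdps, the median day difference was -0.37 (wt/wt) and -0.18 (fl/fl). For the 11 enzymes from Fdft1 to Dhcr7 it was 0.54 and 0.72. The medians of all genes were 0.17 and 0.00. This split of the branch was made with its values known. The medians of the early enzymes also rest on the brightest Hmgcs1 probe set, at -0.19 in either genotype. With any of its other probe sets above the filter, which gave 0.98 to 1.95, both medians would be positive.

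In the fatty acid branch, Fasn, the synthase that builds palmitate, read 606 and 684 at day 4 (wt/wt and fl/fl) and 345 and 378 at day 6. Both day 6 values were the lower, by log2 differences of -0.79 and -0.83. Acaca, the carboxylase that makes malonyl-CoA, read 157 and 163 at day 4 and 112 and 106 at day 6, differences of -0.44 and -0.56. Acly, which supplies cytosolic acetyl-CoA from citrate, had its brightest probe set at 726 and 914 at day 4 and 833 and 699 at day 6, with overlapping days and differences of 0.19 and -0.38.

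Enzymes that modify the finished chain were higher at day 6. Elovl6, the elongase that acts on palmitate, read 84.4 and 122 at day 4 and 147 and 179 at day 6, differences of 0.70 and 0.50. Other Elovl6 probe sets gave 0.23 and 0.24, and -0.31 and -0.29. Scd1, the stearoyl-CoA desaturase studied most in liver and fat, read 78.3 and 54.3 at day 4 and 125 and 193 at day 6, differences of 0.58 and 1.57. Its paralog Scd2 had its brightest probe set at 584 and 972 at day 4 and 1986 and 2416 at day 6, differences of 1.74 and 1.30. A further Scd2 probe set read 163 and 153 at day 4 and 41.3 and 48.6 at day 6, so it gave the opposite direction (-1.64 and -1.38). Scd1 and Scd2 are close paralogs, and probes could bind both transcripts.

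Of the control genes, Srebf1, which encodes the SREBP form tied mainly to fatty acid synthesis, read 199 and 330 at day 4 and 569 and 574 at day 6. The log2 difference was 1.44 (wt/wt) and 0.77 (fl/fl). Srebf2, the form tied mainly to sterol synthesis, read 81.2 and 111 at day 4 and 85.4 and 111 at day 6, differences of 0.06 and -0.00. Scap, the SREBP escort, read 128 in wt/wt organoids at day 4 and 191 to 214 on the other arrays, differences of 0.52 and -0.10. Insig1, an SREBP target that retains SCAP, lay between 211 and 292 with differences of 0.12 and -0.44, and Insig2 differed by 0.56 and 0.43.

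Stard4, which carries sterol between membranes, read 402 and 455 at day 4 and 411 and 652 at day 6, differences of 0.03 and 0.50. Other Stard4 probe sets gave 0.72 and 1.21, and 0.50 and 0.91. Lpin1, which makes diacylglycerol, read 102 and 120 at day 4 and 73.3 and 91.6 at day 6, differences of -0.41 and -0.34. The other Lpin1 probe set gave 0.25 and 0.19, so the direction of Lpin1 between the days is uncertain. The plot of day differences shows each gene in both genotypes.

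**Figure D2:**
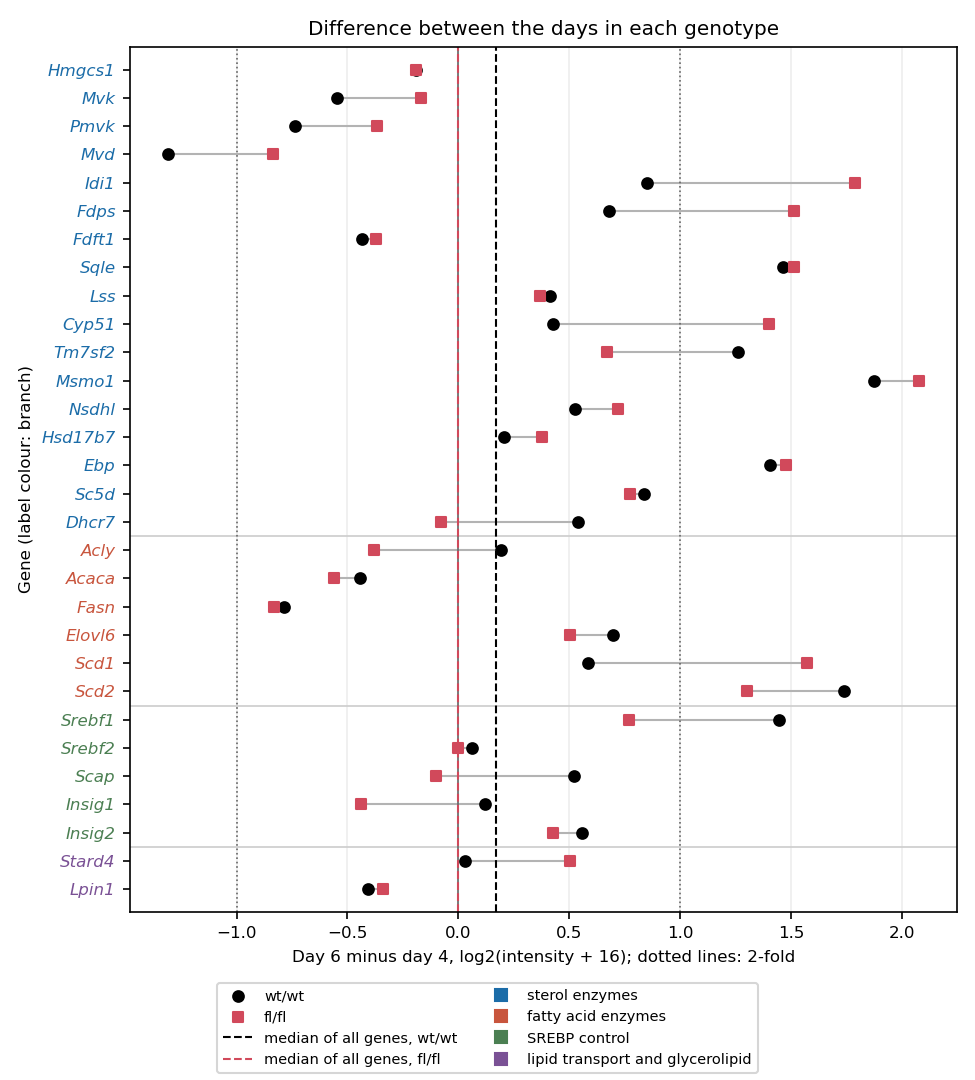
Day 6 minus day 4 on the log2(intensity + 16) scale (x axis) for each of the 30 genes (rows, in pathway order) in wt/wt (black circles) and fl/fl organoids (red squares), with dotted lines at 2-fold and dashed lines at the medians of all genes (0.17 and 0.00). Sqle, Msmo1, Ebp and Scd2 lie beyond 2-fold in both genotypes, while Mvd, Pmvk, Acaca and Fasn lie below 0 in both.

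A limma model with additive terms for genotype and day, fitted over 11392 genes, had 1 residual degree of freedom and took the shift between genotypes as its error. It called 11 of 30 genes higher (36.7%) and 2 lower (6.67%) at day 6 at an adjusted p under 0.05, against 22.8% and 7.15% of all genes. After quantile normalization limma called 8 higher and 7 lower (2032 and 2243 of 11407 genes), and with no filter 5 higher and 1 lower (1437 and 372 of 18193 genes). The adjusted p from limma was 0.0040 for Msmo1, 0.0050 for Sqle, 0.0051 for Ebp and 0.0056 for Scd2. Idi1, Srebf1, Fdps, Tm7sf2, Sc5d, Scd1 and Cyp51 were also called higher, with limma adjusted p between 0.0148 and 0.0469. Mvd (adjusted p 0.0140, limma) and Fasn (0.0232) were called lower. Sc5d was called at a mean log2 difference of 0.81, without reaching 2-fold in either genotype.

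These directions hold against the deposited scale and depend on the reference chosen. The 10 housekeeping genes measured were themselves higher at day 6, by a median of 0.67 (wt/wt) and 0.57 (fl/fl), ranging from -0.10 for Ywhaz to 2.81 for B2m in wt/wt organoids. With each array centred on their mean, the count of genes 2-fold higher and lower changed from 6 and 1 to 0 and 8 in wt/wt organoids and from 8 and 0 to 1 and 11 in fl/fl organoids. All genes moved with them, with 2.2% higher and 42.6% lower in wt/wt organoids and 1.73% and 43.8% in fl/fl organoids. Quantile normalization gave 3 higher and 4 lower in wt/wt organoids, against 10.4% and 9.7% of all genes, and 8 and 2 in fl/fl organoids, against 8.14% and 5.91%. Enterocyte markers also differed between the days: the summed intensity of 8 of 10 listed markers was 1151 and 1278 at day 4 (wt/wt and fl/fl) and 6287 and 9428 at day 6. The part of these markers and of the 5′ to 3′ ratios in the day differences was not tested.

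Probe sets of the same gene often gave different day differences. Of the 30 genes, 17 had several probe sets above the filter. Their day differences had opposite signs in 10 of these genes in wt/wt and in 8 in fl/fl organoids. Scd2 and Acly had probe sets that were 2-fold apart from 0 in opposite directions in wt/wt organoids, and Scd2 alone in fl/fl organoids. For Acly, probe sets ranged from -1.05 to 1.33 in wt/wt and from -0.67 to 1.48 in fl/fl organoids. Msmo1 rested on its brightest probe set, since the other above the filter gave -0.00 and -0.41. Pmvk, Sqle, Tm7sf2, Nsdhl, Ebp, Dhcr7, Fasn, Srebf1 and Insig1 each had a single probe set. Between the genotypes, probe sets had opposite signs in 11 of the 17 genes at day 4 and in 10 at day 6. Their median spread was 0.44 at day 4 and 0.42 at day 6, against 0.66 and 0.71 between the days.

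**Figure D3:**
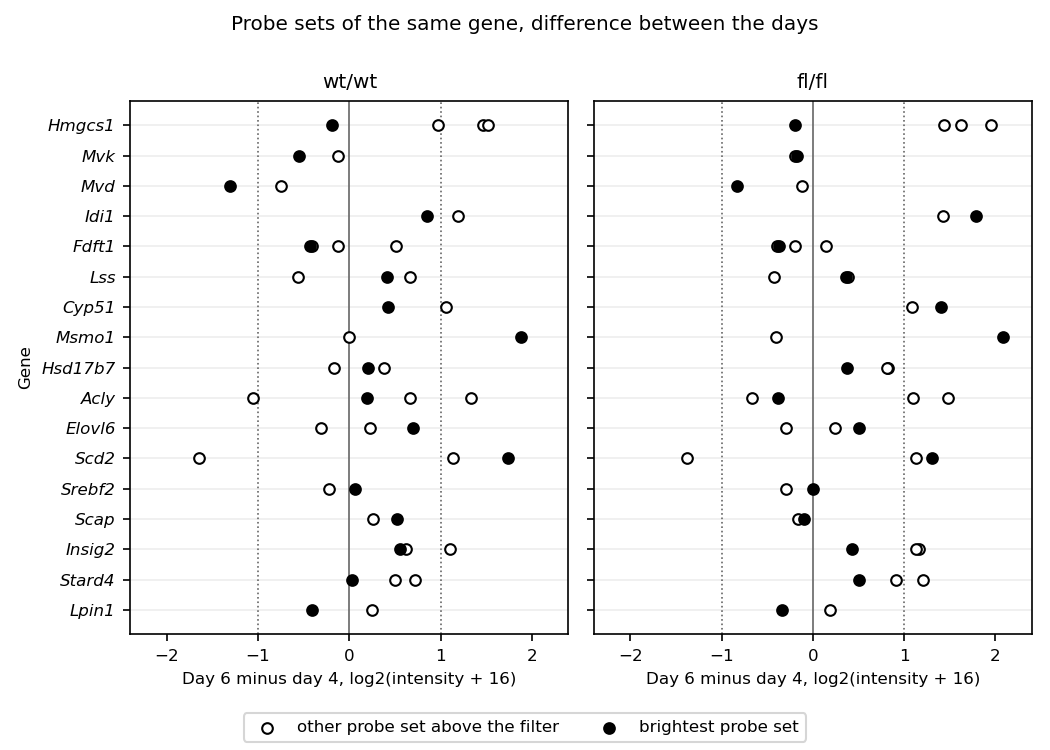
Day 6 minus day 4 on the log2(intensity + 16) scale (x axis) for every probe set above the filter of the 17 genes that have several (rows), in wt/wt (left) and fl/fl organoids (right), with the brightest probe set filled. Scd2 spans -1.64 to 1.74 in wt/wt organoids, and the brightest Hmgcs1 probe set lies at -0.19 while its others lie at 0.98 or above.

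Setting the fl/fl arrays against the wt/wt arrays of the same day asks what differed where Tacc3 carried floxed alleles. At day 4, 0 of 30 genes were 2-fold higher or lower, against 1.38% and 0.105% of all genes. At day 6 Cyp51 alone was 2-fold higher and 0 were lower, against 0.211% and 0.571%. In the additive limma fit 0 genes of the series, and so 0 of the 30, were called by genotype in either direction (0.0% of all genes). After quantile normalization limma called 1 gene, which was not among the 30. Without adjustment, 609 of all genes and 4 of the 30 had an unadjusted p under 0.05. Those 4 were Ebp, Sc5d, Insig2 and Sqle.

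Ebp and Sc5d, which act near each other late in the sterol branch, were higher in fl/fl organoids on both days by a similar amount. Ebp read 62.8 against 114 at day 4 and 193 against 347 at day 6, log2 differences of 0.72 and 0.80. Sc5d read 46.4 against 91.6 at day 4 and 95.8 against 168 at day 6, with 0.78 and 0.72. The limma adjusted p was 0.784 for each. Insig2 differed by 0.63 and 0.50, although its other probe sets gave 0.13 and -0.33 at day 4. Sqle differed by 0.44 and 0.49 and Lss by 0.43 and 0.38, although another Lss probe set gave -0.05 and -0.32. In all, 20 of the 30 genes (66.7%) were above 0 on both days, against 38% of all genes, and 9 differed in sign. Mvk alone was below 0 on both, at -0.39 and -0.01, against 14.5% of all genes, and its other probe set gave 0.30 and 0.23. On single days 80% of the 30 were above 0 at day 4 and 83.3% at day 6, against 66.7% and 56.6% of all genes. Genes outside the pathway leaned the same way. Of 10 housekeeping genes, 9 were above 0 at day 4 and 8 at day 6. Of 9 epithelial markers, 9 were above 0 at day 4 and 8 at day 6. A lean particular to the pathway was not tested.

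At day 4, 5 of the 6 early sterol enzymes were lower and the control genes higher in fl/fl organoids. The early enzymes were set apart with their values known. Over the whole sterol branch 12 of 17 enzymes (70.6%) were above 0 at day 4, against 66.7% of all genes. Idi1 differed by -0.39, Mvk by -0.39, Pmvk by -0.27, Mvd by -0.22 and Fdps by -0.10, while the median of all genes was 0.15. The 5 control genes had a median of 0.63, from 0.32 for Insig1 to 0.69 for Srebf1, and all lay above the median of all genes. The 9 epithelial markers had a median of 0.43 at day 4, from 0.32 to 0.69, and their part in these differences was not tested. Scd1 differed by -0.42 and its paralog Scd2 by 0.72.

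At day 6 the signs of Idi1, Fdps and Scd1 were the reverse, at 0.54, 0.73 and 0.56. The other Idi1 probe set gave -0.44 at day 4 and -0.21 at day 6. Cyp51 read 135 (wt/wt) and 287 (fl/fl) at day 6, a difference of 1.002, after 96.3 and 98.6 at day 4. Its second probe set above the filter read 62.1 and 63.0 at day 6, a difference of 0.02, so the higher value rests on the brightest probe set. Stard4 differed by 0.65 at day 6 and 0.17 at day 4. Srebf1 and Scap were close to wt/wt at day 6, at 0.01 and 0.05. Of 17 sterol enzymes, 15 were above 0 at day 6, with a median of 0.31 against 0.05 for all genes. The 8 enterocyte markers had a median genotype difference of 0.69 at day 6 and -0.11 at day 4, and their part in the sterol differences was not tested.

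**Figure D4:**
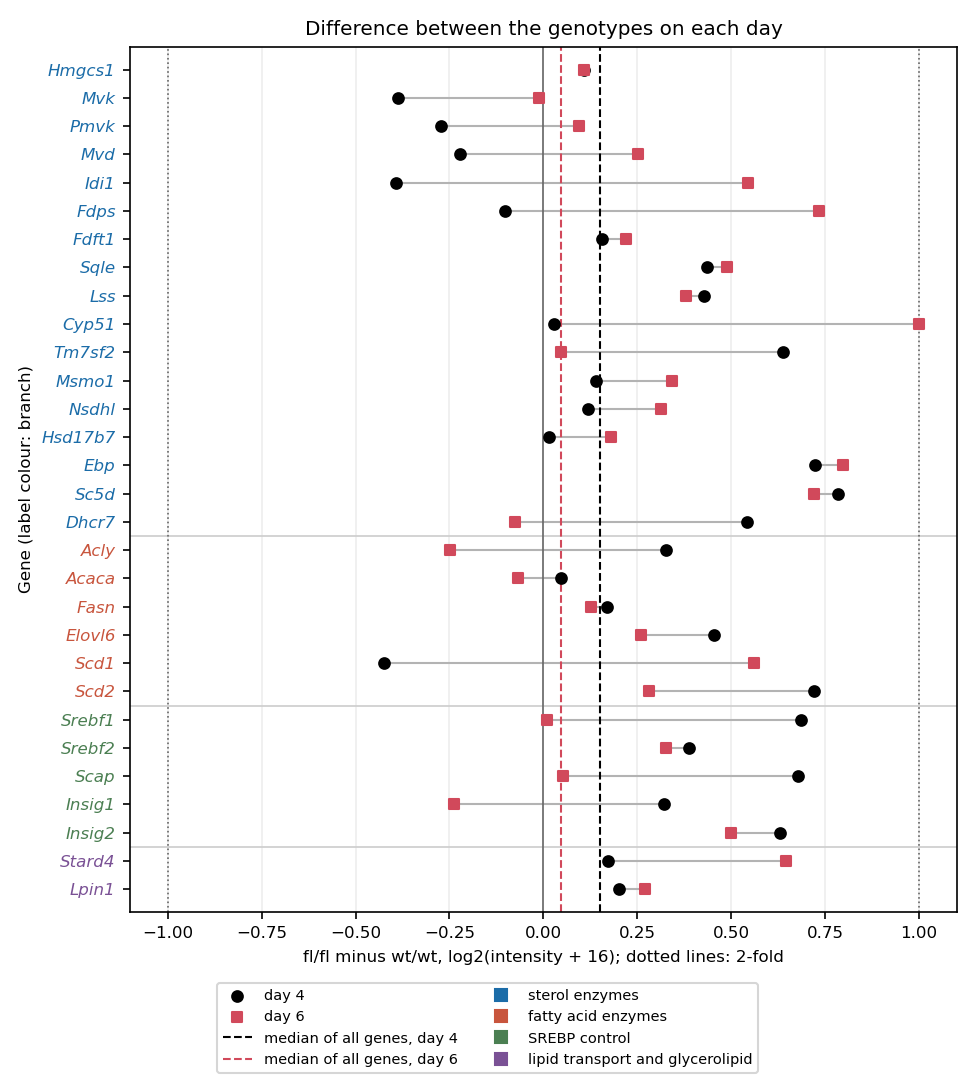
fl/fl minus wt/wt on the log2(intensity + 16) scale (x axis) for each of the 30 genes (rows, in pathway order) at day 4 (black circles) and day 6 (red squares), with dotted lines at 2-fold and dashed lines at the medians of all genes (0.15 and 0.05). Cyp51 at day 6 reaches the 2-fold line at 1.002, Ebp and Sc5d lie between 0.72 and 0.80 on both days, and Idi1, Fdps and Scd1 lie on opposite sides of 0.

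The sterol and fatty acid branches were compared by their medians. Between the days, the sterol median was 0.53 (wt/wt) and 0.67 (fl/fl) and the fatty acid median 0.39 and 0.06, so that the branches stood 0.14 and 0.61 apart. Between the genotypes the sterol median was 0.12 at day 4 and 0.31 at day 6 and the fatty acid median 0.25 and 0.19, gaps of -0.13 and 0.12. The day gap did not keep its sign without x_at and s_at probe sets, whose probes can match several transcripts. Among the fatty acid enzymes this exchanged the probe set of Acly alone, for one at 1.33 and 1.09, and the gap was -0.10 (wt/wt) and -0.08 (fl/fl). Each branch was spread more widely within itself than the branches were apart, from -1.31 to 1.88 for sterol and from -0.79 to 1.74 for fatty acid enzymes in wt/wt organoids.

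Against the median of all genes the sterol branch was higher between the days in both genotypes, and between the genotypes at day 6, in all 9 settings tried. The 9 settings include the deposited scale. Centring on the array median or on housekeeping genes shifts all genes of an array alike, so it could not change the margin over that median. The margin ranged from 0.18 to 0.60 between the days in wt/wt, from 0.49 to 0.76 in fl/fl organoids and from 0.13 to 0.29 between the genotypes at day 6. Leaving out the filter could not change the sterol medians, since all 17 enzymes passed it. It moved the median of all genes in wt/wt organoids to -0.08, which gave the margin of 0.60. The sign of the sterol median itself did not hold, since centring on housekeeping genes gave -0.48 and -0.24 between the days. At day 4 the sterol median exceeded that of all genes in 1 of 9 settings. The fatty acid median lay above that of all genes in 9 of 9 settings between the days in wt/wt and in 8 of 9 in fl/fl organoids, by as little as 0.03 in wt/wt organoids. Between the genotypes it lay above in 9 of 9 settings at day 6, by 0.09 to 0.17, and in 8 of 9 at day 4.

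**Figure D5:**
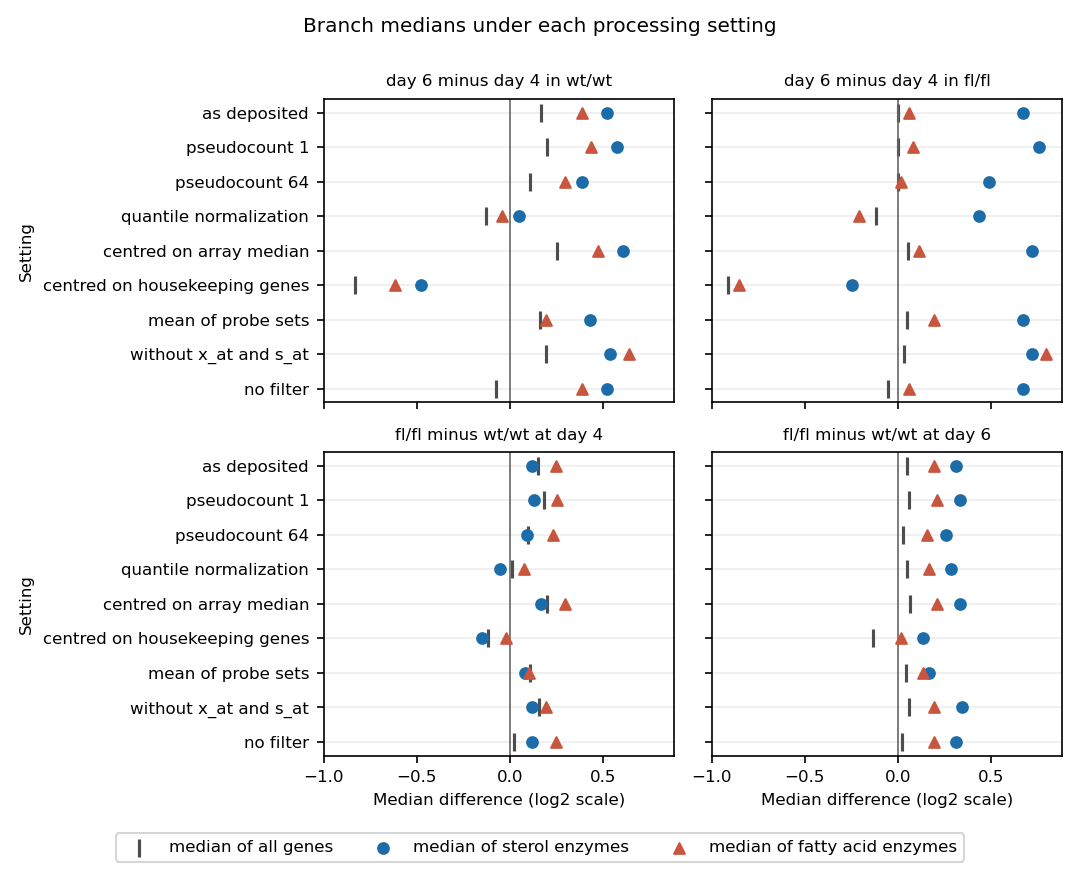
Median log2 difference (x axis) of the 17 sterol enzymes (blue circles), the 6 fatty acid enzymes (red triangles) and all genes (grey bars) in the 4 contrasts (panels) under the deposited scale and 8 alternatives (rows). Housekeeping centring moves the day medians of both branches below 0 (sterol -0.48 and -0.24) together with that of all genes, and leaving out x_at and s_at probe sets moves the fatty acid triangles to the right between the days.

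Other genes of the pathways, outside the 31, were described from lists chosen by name. Of 10 further sterol synthesis and uptake genes, 6 had a probe set. Lbr, a nuclear envelope sterol reductase, was higher at day 6 by 2.78 (wt/wt) and 2.22 (fl/fl), the sterol complex scaffold Erg28 by 1.13 and 2.06 and the sterol-regulated membrane protein Tmem97 by 2.20 and 1.62. Ggps1, which makes geranylgeranyl diphosphate, differed by -0.42 and -0.57, Mmab by -0.73 and -0.21 and the acetyl-CoA synthetase Acss2 by 0.02 and -0.29.

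Of 19 genes of fatty acid modification and triglyceride synthesis, 17 passed the filter. The number 2-fold higher at day 6 was 6 among wt/wt arrays and 4 among fl/fl arrays, against 18.3% and 12.2% of all genes. The 4 were Acsl3, an acyl-CoA synthetase (2.58 and 1.91), Hacd2 (1.67 and 1.65) and Hsd17b12 (1.18 and 1.09), both of the elongation cycle, and Dgat1, which completes triglycerides (1.21 and 1.005). Fads2, a desaturase, differed by 1.63 and 0.89, the sugar-responsive factor Mlxipl by 1.58 and 0.24 and Elovl5 by 0.70 and 0.59. The list had medians of 0.70 and 0.30, against 0.17 and 0.00 for all genes and 0.67 and 0.57 for housekeeping genes.

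Between the days, genes of SREBP processing and turnover had medians of 1.41 (wt/wt) and 0.88 (fl/fl), with 6 of 8 measured. The medians were 0.17 and 0.00 for all genes, 0.67 and 0.57 for housekeeping genes and 0.86 and 0.64 for epithelial markers. Whether the list differs from such genes was not tested. Mbtps1 and Mbtps2, the proteases that release SREBP, differed by 1.61 and 0.92 and by 1.40 and 0.85. Sec23a, of the coat that carries SCAP to the Golgi, differed by 1.42 and 2.43 and the ubiquitin ligase gene Rnf139 by 1.69 and 1.32. Fbxw7, which targets nuclear SREBP for degradation, was lower, by -0.74 and -1.01. In the list of LXR, sterol efflux, storage and export genes, with 10 of 13 measured, the sterol exporter Abcg5 differed by 2.37 and 1.44, the uptake protein Npc1l1 by 1.13 and 2.36 and Abca1 by 0.95 and 1.32. Mylip differed by 0.40 and 0.79 and Stard3 by 0.77 and 0.22.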

How the data were processed

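Expression was measured on 4 arrays, 1 per group, assigned by sample title. The deposited values are linear intensities for 45101 probe sets, as the values themselves show; how the authors summarised and normalized them is not stated there or in the labels. Per the labels, biotinylated cRNA came from 100 ng of total RNA with a 3′ IVT kit, so probe sets read mainly the 3′ end. The platform table gave 1 symbol for 34958 probe sets, several for 932 and none for 9211. Symbols were updated through the Entrez ID (34754 matched; RefSeq, GRCm38.p6).

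Each gene was represented by its highest-mean probe set as log2(intensity + 16), and the 11392 of 18193 genes with a mean of at least 5.04, the median over probe sets, were compared. The members and lists were chosen with earlier results of these data known. Every member is named, and of the other lists the genes 2-fold in both genotypes plus up to 3 more with the largest mean difference. limma 3.58.1 (R 4.3.3) was fitted across all genes as genotype plus day, with Benjamini-Hochberg adjustment. Tested on simulated data for the day effect over 11392 genes, it called 11 of 11192 unchanged genes. It called 5 of 50 genes changed by 1 (log2), 46 of 50 changed by 2, 49 of 50 by 3 and 50 of 50 by 4. Far fewer genes were changed there than the 3412 called by day in the data, so these shares need not hold for the fit reported. The alternatives were pseudocounts of 1 and 64, quantile normalization, centring on the array median or housekeeping genes, the mean of probe sets, leaving out x_at and s_at probe sets, and no filter. The number of arrays limits the precision.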

Additional observations from a re-analysis of the deposited data

Results flagged for a closer look

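In 11 genes the genotype difference had opposite signs on the 2 days, the day difference had opposite signs in the 2 genotypes, or both. These differences were not tested, since each value rests on 1 pair of arrays. The values given are the shift of the genotype difference, day 6 minus day 4, on the log2 scale, which equals the day difference of fl/fl minus that of wt/wt organoids. The shift was 0.99 for Scd1, 0.94 for Idi1, 0.84 for Fdps, 0.48 for Mvd and 0.37 for Pmvk, each lower in fl/fl organoids at day 4 and higher at day 6. It was -0.62 for Dhcr7, -0.57 for Acly, -0.56 for Insig1 and -0.12 for Acaca, each with the fl/fl array above wt/wt at day 4 and below it at day 6. For Scap (-0.63) and Srebf2 (-0.061) the day difference alone differed in sign, above 0 in wt/wt and below 0 in fl/fl organoids. These signs are those of the brightest probe sets. Genotype differences (day 4 and day 6) were -0.44 and -0.21 for the other Idi1 probe set and -0.03 and 0.60 for that of Mvd. Further Acly probe sets above the filter gave -0.25 and 0.56, -0.32 and 0.06, and 0.23 and -0.02. Day differences (wt/wt and fl/fl) were -0.23 and -0.30 for the other Srebf2 probe set and 0.26 and -0.16 for that of Scap.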

How the results depend on the processing

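Pairing by replicate was not possible because each group holds 1 array, so that no replicate numbers are shared. For the same reason no array could be left out. The additive limma fit compares the days with genotype as a term. Medians that moved by over 0.25 (log2) and counts that moved by over 1.5 times are given here, and 138 recomputed counts and medians stayed within these limits while 26 did not. Quantile normalization gave day medians of 0.048 (sterol) and -0.039 (fatty acid) in wt/wt organoids and -0.21 (fatty acid) in fl/fl organoids, with 3 genes 2-fold higher and 4 lower in wt/wt and 2 lower in fl/fl organoids. Centring on housekeeping genes gave day medians of -0.48 and -0.61 in wt/wt and -0.24 and -0.85 in fl/fl organoids (sterol and fatty acid), day 4 genotype medians of -0.15 and -0.020, and 0 higher and 8 lower in wt/wt and 1 higher and 11 lower in fl/fl organoids between the days. The mean of probe sets left 3 genes 2-fold higher between the days in fl/fl organoids, against 7.95% of all genes. Without x_at and s_at probe sets, 0 genes were 2-fold lower between the days in wt/wt organoids, against 2.72% of all genes. In that setting the fatty acid day medians were 0.64 and 0.80 (wt/wt and fl/fl). The sterol minus fatty acid gap in fl/fl organoids was then -0.077. Cyp51, the single gene 2-fold between genotypes at day 6, was no longer so, leaving 0, with pseudocount 64, quantile normalization, housekeeping centring or the mean of probe sets (0.38 to 0.98). After quantile normalization the limma fit called 8 genes higher and 7 lower by day instead of 11 and 2. With no filter it called 6 genes (5 higher and 1 lower) instead of 13, with 18193 genes tested. Pseudocount 1 and centring on the array median moved none of these beyond the limits. The cause of these changes was not tested.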
